A study of Mus musculus with 168 samples.

Results

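Mir7b, Mir7-2, Mir375 and Mir153 are microRNA genes known from neuroendocrine cells, and their levels were followed in mouse cortex across 7 genotypes and 3 ages. The members were the rows of the count table whose GENCODE gene name is one of these 4 symbols, and all 4 were found among the 329 microRNAs tested, of 1626 transcripts in the table. The small RNA libraries came from 168 mice, 8 per genotype and age with 4 females and 4 males. All mice were on a C57BL/6 background. The mutants were heterozygous: one Htt allele was wild type and the other was a knock-in of human HTT exon 1 with the CAG length that names the line (Q80, Q92, Q111, Q140 or Q175). Heterozygous Q20 knock-in mice, whose repeat is as short as a common human one, and WT (wild type) mice born beside them served as controls. Cortex was taken at 2, 6 and 10 months. Each CAG length is carried by 1 line, so line and repeat length cannot be told apart, and Q175 arose by a spontaneous expansion in Q140 mice. Mice of 1 sex and genotype came from different litters. Cages held mice of 1 sex, and each housing code of 2 and 10 months carries the name of 1 line. Mutants and controls therefore shared no housing code at these ages, and line and cage cannot be told apart.

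MicroRNAs pair with messenger RNAs mainly through their seed, bases 2 to 8 of the mature strand, and lower the output of their targets. The miR-7 family and miR-375 are enriched in hormone-secreting cells such as those of the pancreatic islet and pituitary, and miR-153 is a brain microRNA. In brain, miR-7 binds the circular RNA Cdr1as at many sites, and miR-671 directs the cleavage of that circle. In whole cortex, fewer cells of a type and less RNA per cell cannot be told apart.

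The mature sequences show which loci the counting could separate. They are given 5′ to 3′ from RefSeq (GRCm38.p6), with the seed in capitals.
mmu-miR-7a-5p: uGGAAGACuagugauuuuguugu
mmu-miR-7b-5p: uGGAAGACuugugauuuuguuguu
mmu-miR-7a-1-3p: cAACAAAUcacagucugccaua
mmu-miR-7a-2-3p: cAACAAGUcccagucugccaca
mmu-miR-7b-3p: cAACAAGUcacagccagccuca
mmu-miR-153-3p: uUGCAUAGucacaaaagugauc
mmu-miR-153-5p: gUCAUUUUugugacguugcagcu
mmu-miR-375-5p: gCGACGAGccccucgcacaaac

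Mir7-1 and Mir7-2 give the same miR-7a-5p, with 0 differences over 23 bases, so a read of that strand cannot be assigned to one locus. Against miR-7a-5p, miR-7b-5p carries the single substitution A10U (positions counted from 1 at the 5′ end of miR-7a-5p) and an extra base at its 3′ end, and the seed GGAAGAC is shared. The 3p strands of Mir7-1 and Mir7-2 differ by A7G, A10C and U21C. The deposited values of Mir7-1 and Mir7-2 are not whole numbers in 100% of libraries, and those of Mir7b in 63.1%, which can occur where a read is divided between transcripts, whereas Mir153 and Mir375 are whole in every library. Mir7-1, which is no member, is therefore given beside Mir7-2 in the main comparisons. The other member strand, miR-375-3p, is named only.

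In GRCm38, Mir7-2 lies at chr7:78888277-78888373 on the plus strand and Mir7b at chr17:56242988-56243098 on the plus strand, both outside any GENCODE gene. Mir375 lies at chr1:74900658-74900721 on the minus strand, also between genes. Mir153 lies at chr12:117250817-117250885 on the plus strand in an intron of Ptprn2, which encodes a protein of secretory granules and runs on the same strand, and antisense Gm5441 spans the site on the other strand without an exon there. Mir7-1 lies at chr13:58392779-58392886 on the minus strand in an intron of Hnrnpk. Library totals ranged from 2041741 to 11646287 estimated counts (median 4810487), and the members held between 42.1 counts (the lowest library for Mir7-2) and 21994 counts (the highest for Mir153).

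Levels are CPM, the counts of a transcript relative to the library total, scaled by TMM, a normalization that sets libraries to a common scale by the bulk of microRNAs. By mean level over all libraries, Mir153 ranked at 48 of 328 microRNAs, Mir375 at 152, Mir7b at 171 and Mir7-2 at 172. Per 100 bases of annotated hairpin at 2 months, Mir153 stood at 2424 ± 461 CPM (SD, n = 56), Mir375 at 146 ± 144, Mir7-2 at 57.0 ± 11.3 and Mir7b at 52.8 ± 7.20. The last 2 levels differed by less than 1 SD. Without division by hairpin length, Mir7b held 58.6 ± 7.99 CPM and Mir7-2 55.3 ± 10.9 at that age, so their order depends on the division.

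**Figure D1:**
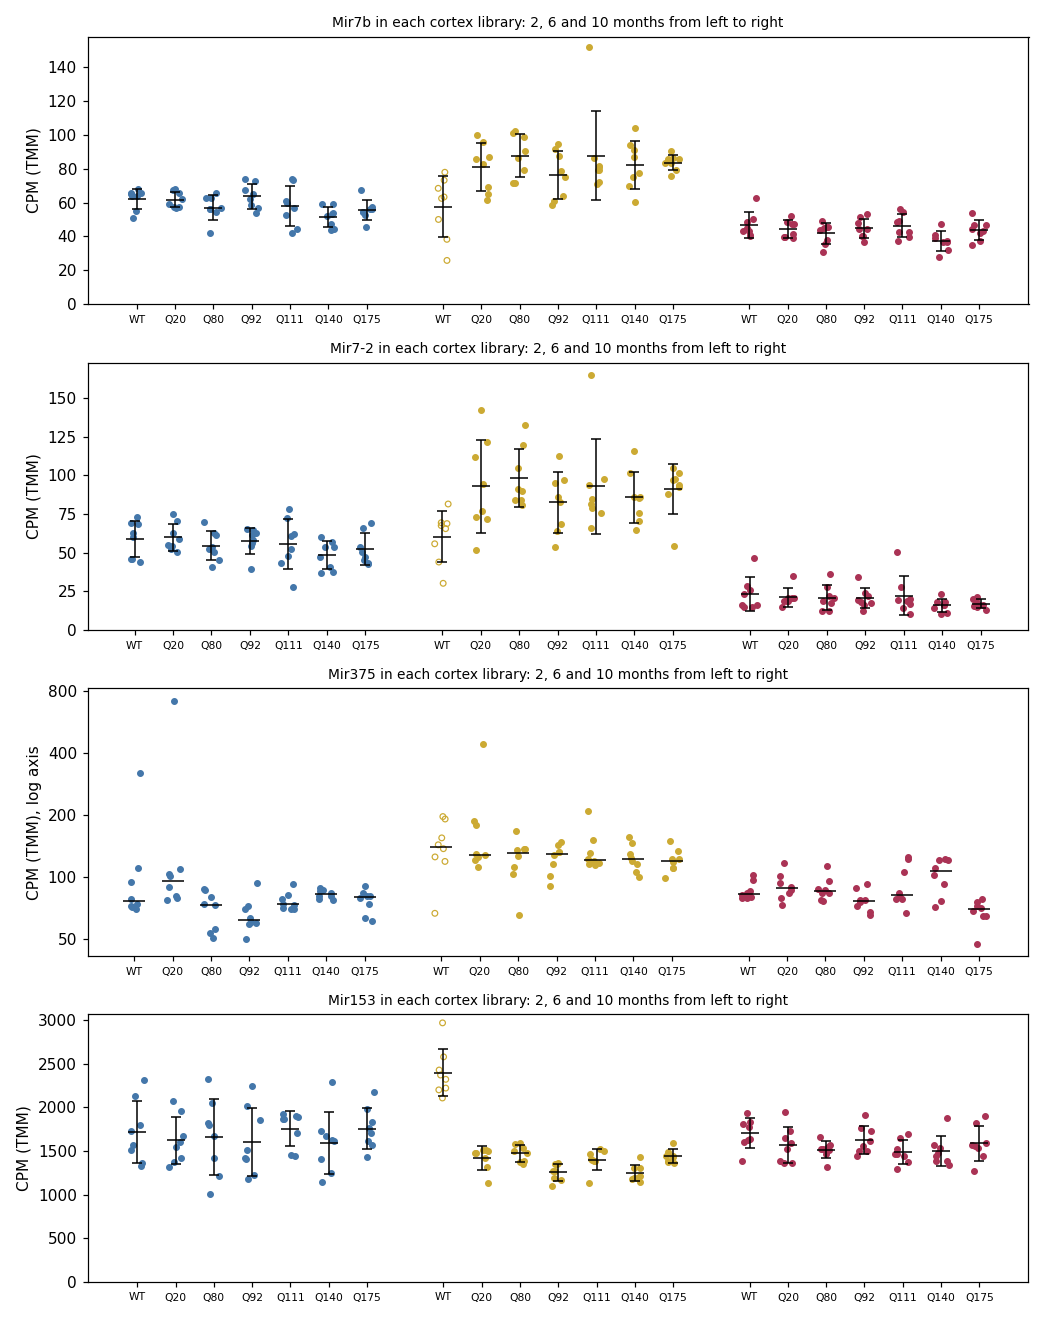
Levels of the 4 members in each library (points, TMM-scaled CPM) by genotype at 2, 6 and 10 months, with mean and SD per group of 8, or the median alone for Mir375, whose axis is logarithmic. Mir7-2 was lower at 10 months, 3 control libraries stood out for Mir375, and the open points of the WT libraries of 6 months sat above the rest for Mir153.

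Among the members and comparisons tested, the largest log2 difference was that of Mir7-2 with age. Mir7-2 fell by 1.46 on the log2 scale from 2 to 10 months (SE 0.0758, edgeR quasi-likelihood test adjusted over all microRNAs, FDR 4.99e-35). In the 56 libraries of 2 months its lowest, median and highest levels were 28.0, 54.2 and 78.2 CPM, and in the 56 of 10 months they were 10.1, 18.6 and 50.5 CPM. All 56 libraries of 10 months were below the 2-month median, and 50 of them were below the lowest 2-month library. The mean level was lower at 10 months in each of the 7 genotypes, and in 5 of them the 8 libraries of 10 months did not overlap the 8 of 2 months. How often this holds over all microRNAs was not counted. At 6 months, the 48 libraries without WT held 51.9, 87.0 and 165 CPM (lowest, median and highest), so these 48 were the highest rather than intermediate. The 8 WT libraries of 6 months, kept apart, held 30.2, 66.5 and 81.5 CPM.

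Mir7b, the locus of miR-7b, fell by 0.43 (SE 0.0362, FDR 4.06e-20), from 58.6 ± 7.99 CPM at 2 months to 43.6 ± 6.59 at 10 months (SD, n = 56 each), and 55 of 56 libraries of 10 months were under the 2-month median. Mir7-1 fell less, by 0.18 (SE 0.0260, FDR 1.45e-09), from 168 ± 16.9 to 149 ± 13 CPM. Taken as 1 feature, the miR-7a loci Mir7-1 and Mir7-2 fell by 0.41 (SE 0.0306, FDR 8.52e-24), close to the change of Mir7b. The share of Mir7-2 in that sum was 24.6% ± 3.09 in the youngest mice, 33.4% ± 4.07 at 6 months (n = 48, without WT) and 11.7% ± 3.29 in the oldest. In the WT libraries of 6 months it was 25.3% ± 3.90. The difference in that share between 2 and 10 months was the largest in 100000 permutations of the ages. The two-sided permutation test, which left genotype and sex aside, gave p = 1e-05, the smallest it can give. The share restates the unequal falls of the 2 loci, so this test adds no separate result. Because the 5p strand is shared, this share depends on how the authors' pipeline divided reads as well as on the strands that differ.

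**Figure D2:**
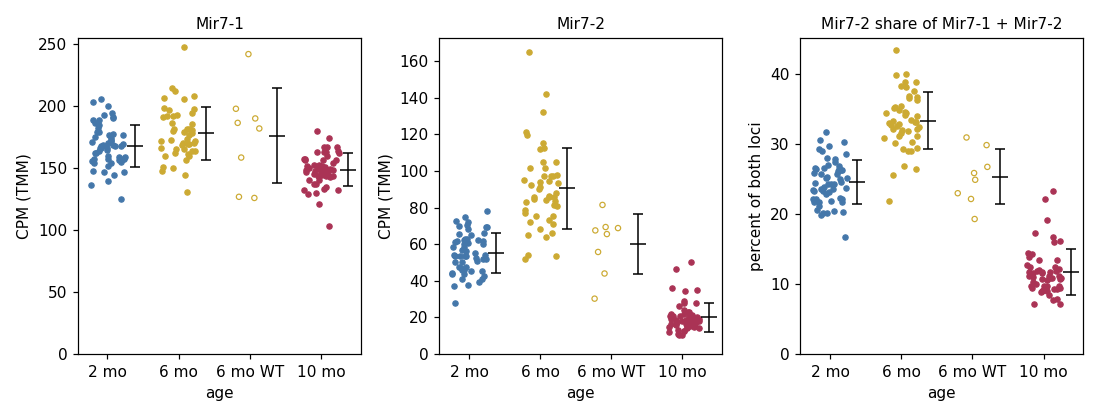
Mir7-1, Mir7-2 and the percentage of Mir7-2 in their sum for each library by age, with WT of 6 months apart (open points), and mean and SD beside the points. The mean share was 33.4% at 6 months without WT, above the 24.6% of the youngest and the 11.7% of the oldest mice.

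Of the 4 members, 3 passed an FDR of 0.05 for 10 against 2 months, where 66.2% of the 328 microRNAs passed. DESeq2 also called 3 of them. The third was Mir153, which fell by 0.09 (SE 0.0417, FDR 0.0417), from 1673 ± 318 CPM to 1569 ± 174. That call was lost in the Q20 and WT libraries alone (log2 change -0.02, FDR 0.832) and when the Q111 (FDR 0.194), Q175 (FDR 0.11), Q20 (FDR 0.068) or Q80 (FDR 0.0611) libraries were left out, and without 3 control libraries in which Mir375 stood apart (FDR 0.0515). The libraries of each age carry a block of sample numbers of their own, so age and processing batch cannot be told apart for any of these values. On library totals alone the median of all microRNAs was -0.095 rather than -0.019 on the log2 scale, and Mir7-2 (-1.54), Mir7b (-0.50) and Mir153 (-0.17) fell there too.

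Among lists of related microRNAs, the 3 tested members of the Cdr1as circuit are the miR-7 loci described above (Mir7-1, Mir7-2 and Mir7b). All 3 fell with age, where 113 of all 328 microRNAs fell. Their median of -0.43, against -0.02 over all microRNAs, is the value of Mir7b, so this list adds no separate result. Mir671, the other gene of that circuit, was in the table but outside the tested set, and held 204 ± 12.3 CPM at 2 months and 201 ± 16.6 at 10 months. Of 16 tested endocrine and islet-enriched microRNAs, 15 fell, Mir153 and the same 3 miR-7 loci among them. The median of the 16 was -1.91, and 113 of all 328 microRNAs fell. The exception was Mir375. Apart from Mir153, the miR-7 loci and the olfactory markers named next, only Mir216a (-0.70), Mir217 (-0.91) and Mir184 (-0.30) fell. This list therefore largely restates those results. Of those 15, 8 belong to the Mir200 and Mir183 families, among them Mir200c (-4.09), Mir182 (-3.40) and Mir183 (-3.43), and these 8 also make up the list of olfactory tissue markers described next.

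The summed level of these 8 olfactory bulb and epithelium microRNAs ran from 253 to 34487 CPM among the libraries of 2 months and from 504 to 46095 CPM at 6 months, but only from 230 to 1749 CPM at 10 months. In 23 of 56 libraries of 2 months and 33 of 48 of 6 months it was above every 10-month library. Other marker lists also differed with age. From 2 to 10 months the neuron list, with 9 of 13 microRNAs in the table, went from 98537 ± 4871 to 108759 ± 5636 CPM, the oligodendrocyte list from 3412 ± 301 to 4633 ± 423 and the erythrocyte list from 3337 ± 368 to 2570 ± 234. At 6 months the vessel list stood at 37357 ± 3109 CPM against 22444 ± 2071 at 2 months, and the list of microglia and leukocytes at 1172 ± 136 against 618 ± 75.5. Their part in the age differences was not tested.

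At 2 months the median of Mir375 was 86.9 CPM in the 23 libraries rich in the olfactory list and 73.7 CPM in the other 33, and the means were 124 ± 139 and 72.6 ± 12.2, the former including libraries of 720 and 321 CPM. At 6 months its medians were 129 CPM in the 33 libraries above and 117 CPM in the 15 others. Mir7-2 held 53.8 ± 9.44 against 56.3 ± 11.9 CPM at 2 months and 87.9 ± 18.9 against 96.5 ± 27.9 CPM at 6 months. Mir7-1 held 166 ± 17.7 against 169 ± 16.5 CPM and 173 ± 17.6 against 188 ± 25.2 CPM. Mir7b held 57.0 ± 7.67 against 59.7 ± 8.14 CPM and 80.2 ± 11.8 against 89.7 ± 20.2 CPM. None of these splits was tested. Without the 23 libraries, the log2 change from 2 to 10 months was -1.53 for Mir7-2 (FDR 1.43e-26) and -0.48 for Mir7b (FDR 3.36e-17).

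**Figure D3:**
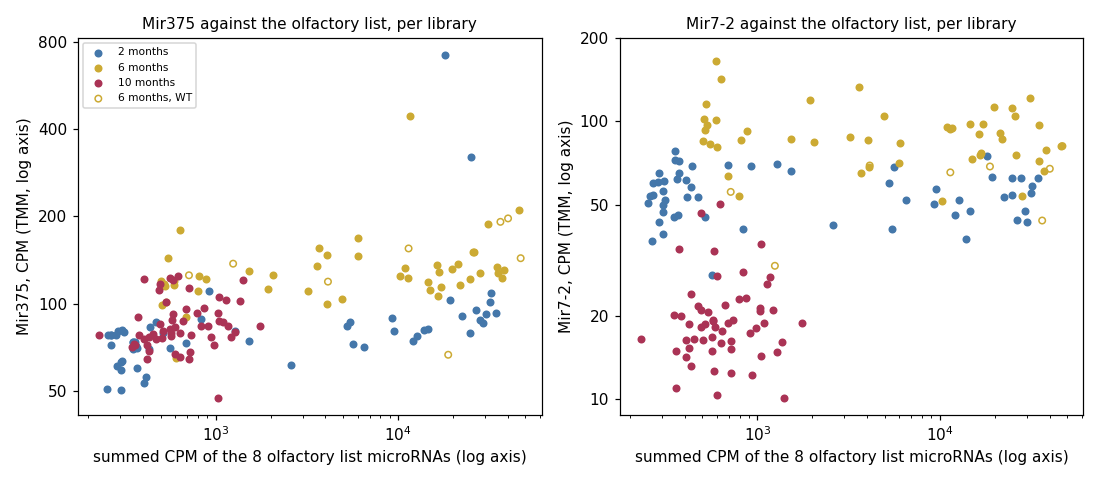
Each library's level of Mir375 (left) and Mir7-2 (right) against the summed level of the 8 olfactory list microRNAs, all axes logarithmic, colored by age. The libraries of 10 months end at 1749 CPM of the list, and the 3 highest Mir375 libraries, at 321, 444 and 720 CPM, lie to the right of that value.

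In those 3 libraries, all of controls, Mir375 stood far above its group. A female Q20 mouse of 2 months held 720 CPM against 77.3 to 109 in the other 7, a male WT mouse of 2 months 321 CPM against 69.8 to 111, and a male Q20 mouse of 6 months 444 CPM against 112 to 188. The olfactory list was not highest in them. It stood at 18050 CPM in the first library (the other 7 ran from 1275 to 32210), at 24998 CPM in the second (266 to 26678) and at 11658 CPM in the third (635 to 35146). In the first, Mir375 was 8.03 times the median of its group, and the next microRNA by that ratio was Mir211 at 1.60. In the second, by contrast, Mir200c, at 68.6 times, led the ratios together with Mir183 and Mir141. The ratio of Mir375 in the third was 3.47, followed by Mir3547 at 1.74. The part of other tissue in these levels was not tested.

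The Mir375 values of the younger ages rested in part on these 3 control libraries. From 2 to 10 months Mir375 gave a log2 change of -0.04 (SE 0.0954, FDR 0.696), and without the 3 libraries it rose by 0.15 (FDR 0.00119). It also rose, by 0.19 (FDR 0.000681), without the 23 olfactory-rich libraries. At 6 months, the 48 libraries without WT held 134 ± 51.9 CPM of Mir375, the highest of the 3 ages, against 93.6 ± 92.2 at 2 months and 86.5 ± 17.2 at 10 months.

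The comparison the study was built for asks whether levels move with CAG length. None of the 4 members passed at 2 months, where 0% of 327 microRNAs did, at 6 months (2.75% of microRNAs passed) or at 10 months (8.84%), and none passed when the 6- and 10-month results were combined by meta-analysis (11.9%). By unadjusted p under 0.05, 3 members were counted at 2 months (13 of all 327 microRNAs), 1 at 6 months (66 of 327), 1 at 10 months (72 of 328) and 3 in the meta-analysis (88 of 327). DESeq2 called 0 at each age and 1, Mir375, in the meta-analysis. Slopes are per 100 CAG repeats. At 2 months the slope of Mir375 was -0.55 (SE 0.150, edgeR unadjusted p = 0.000537 over 56 libraries, FDR 0.176), but it was -0.08 (SE 0.0564, FDR 0.927) without the outlying libraries alone and 0.03 (FDR 1) without all olfactory-rich ones, which include them. Of the 16 controls of 2 months, 11 were olfactory-rich, 7 of 8 Q20 and 4 of 8 WT. Among the mutant lines the counts were 4 of 8 in Q140, 3 of 8 in Q111, 2 of 8 in Q80, 2 of 8 in Q175 and 1 of 8 in Q92.

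In the meta-analysis, Mir375 had a Z of -2.66 (FDR 0.0566), Mir153 of -2.34 (FDR 0.109), Mir7-2 of -2.02 (FDR 0.171) and Mir7b of -0.94 (FDR 0.588). The Mir375 value crossed the threshold on library totals alone (FDR 0.0394), with filterByExpr (FDR 0.0494), and without the library code (FDR 0.0349), and the Z was -0.55 (FDR 0.914) without the Q175 mice and -1.84 (FDR 0.227) without the outlying libraries. Without the olfactory-rich libraries, which leaves 15 of 48 at 6 months and 1 of them Q20, it was -1.41 (FDR 0.429). Without the Q175 mice, Mir153 passed with a Z of -3.81 (FDR 0.0202), where 4 of 327 microRNAs passed. The levels of Mir153 also split by a number in the sample descriptions, as given below. Its slope was -0.07 (SE 0.0412) at 6 months and -0.06 (SE 0.0378) at 10 months. For Mir7-2 the slopes were -0.15 (SE 0.0668) at 2 months, -0.08 (SE 0.107) at 6 months and -0.26 (SE 0.117) at 10 months, with FDR values of 0.841, 0.794 and 0.187. The same slopes for Mir7-1 and Mir7-2 together were -0.06, -0.04 and -0.04. Mir7b gave -0.13 (SE 0.0440, FDR 0.463) at 2 months, followed by slopes of 0.01 (6 months) and -0.08 (10 months). The change of slope between 2 and 10 months passed for 0 of the 4 members and for 1.83% of microRNAs (1 member, Mir375, had an unadjusted p under 0.05, and DESeq2 called 0).

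Mir375 in Q175 cortex of 10 months was the 1 call of a member in a mutant line. The 8 Q175 libraries held 47.6, 69.996 and 78.1 CPM (lowest, median and highest), and the 16 controls held 73.1, 84.5 and 117 CPM. All 8 Q175 libraries were below the control median, 6 were below every control, and 15 of the 16 controls were above every Q175 library. The level fell by 0.39 on the log2 scale (SE 0.0817, FDR 0.00136), a decrease of 23.8%. In this comparison 12.2% of 327 microRNAs passed. The L number in the sample descriptions, whose meaning the labels do not give, splits these libraries in 3, and the Q175 mean was lower within each. On L6 the Q175 mean was 68.2 ± 3.34 CPM (n = 3) against 88.9 ± 13.1 (n = 7), on L7 it was 68.5 ± 14.2 (n = 4) against 87.5 ± 12.6 (n = 4), and on L8 the only Q175 library held 64.7 CPM against 88.5 ± 10.8 (n = 5). The call held when each of the 24 libraries was left out in turn, with log2 changes from -0.43 to -0.33.

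At that age the olfactory list ran from 230 to 1028 CPM in Q175 and from 357 to 1749 CPM in controls, and with that level as a covariate the change of Mir375 was -0.44 (FDR 0.00202). The choroid plexus list, all 6 of whose microRNAs were counted, ran from 2695 to 3332 CPM in Q175 and from 2629 to 12350 CPM in controls, and its part in the result was not tested. The neuron list stood at 103521 ± 4240 CPM in Q175 and 110032 ± 5025 in controls, and the oligodendrocyte list at 4796 ± 174 and 4527 ± 408, and their part was not tested either. Along the CAG series at 10 months the level of Mir375 did not fall step by step. Q140 had the highest mean, 102 ± 20.2 CPM, then Q111 with 92.6 ± 22.0, Q20 with 90.7 ± 13.8, Q80 with 88.3 ± 11.9, WT with 86.1 ± 8.92, Q92 with 77.1 ± 9.25 and Q175 with 67.9 ± 9.54. No pair of neighbours in that order differed by more than the larger of their SDs. The slope over CAG length was -0.08 (SE 0.0670, FDR 0.527) and turned to 0.11 (FDR 0.693) without Q175.

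The other members in Q175 at 10 months gave log2 changes of -0.40 for Mir7-2 (SE 0.185, FDR 0.181), 0.02 for Mir7-1 (FDR 0.859), -0.03 for the sum of these 2 loci (FDR 0.833), -0.07 for Mir7b (SE 0.0844, FDR 0.646) and -0.06 for Mir153 (SE 0.0756, FDR 0.685). The Q175 libraries of Mir7-2 ran from 13.1 to 21.3 CPM and the controls from 14.7 to 46.7 CPM, so the groups overlapped. No member passed in Q175 at 2 months (0% of microRNAs passed, and 1 member, Mir7b, had an unadjusted p under 0.05) or at 6 months (2.77% passed, with 0 members under 0.05), and DESeq2 called 0 at both ages. Mir375 gave -0.85 (SE 0.413) at 2 months and -0.61 (SE 0.310) at 6 months. Without the 3 outlying libraries, which are among these controls, the changes were -0.18 (FDR 0.881) and -0.29 (FDR 0.384).

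**Figure D4:**
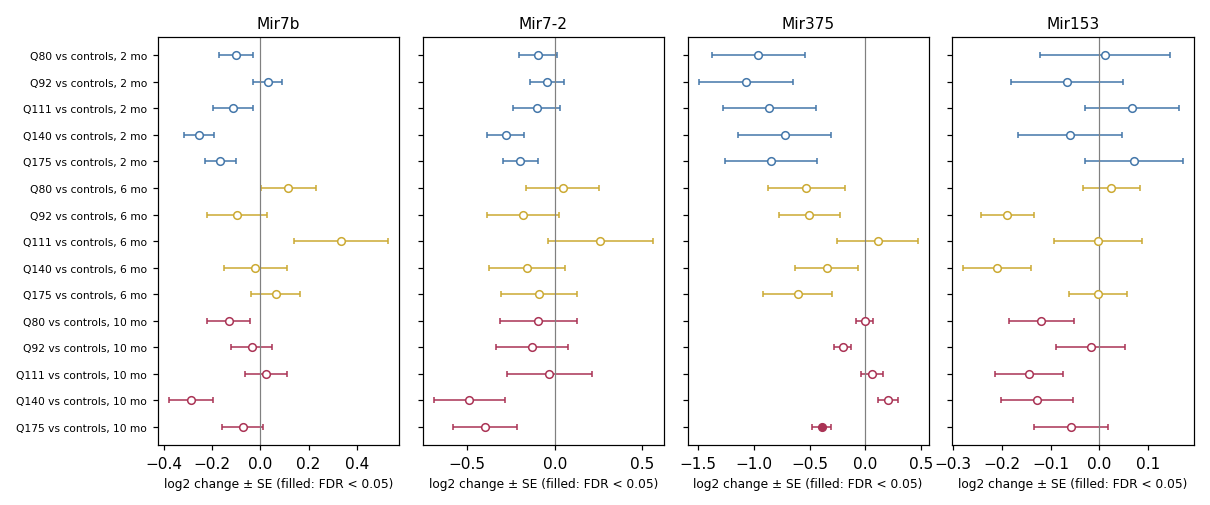
Log2 change with SE of each member in every mutant line against the controls of its age, with a filled point where FDR was under 0.05. Mir375 in Q175 at 10 months, at -0.39, is the only filled point.

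Against the same controls, Q80, Q92, Q111 and Q140 gave 48 tests of a member over 3 ages, of which 0 passed, 11 had an unadjusted p under 0.05 and 1 was called by DESeq2. In each of these comparisons, between 4 and 48 of the 322 to 328 microRNAs had an unadjusted p under 0.05. The background was 0% in 11 of these 12 comparisons and 0.311% in Q92 at 6 months. The smallest p belonged to Mir7b in Q140 at 2 months, with 51.6 ± 5.98 CPM against 62.1 ± 5.17 in controls (log2 change -0.25, SE 0.0625, FDR 0.133). DESeq2 called that difference, with an FDR of 0.0483. Mir7b and Mir7-2 had their lowest mean in Q140 both at 2 and at 10 months, at 37.4 ± 5.87 and 15.9 ± 4.17 CPM at the later age. Most Q140 libraries were on L2 at 2 months and on L7 at 10 months. Mir7b at 2 months had means of 56.5 CPM on L2 and 59.0, 62.3 and 66.2 on L1, L3 and L7. Mir7-2 at 10 months had means of 17.9 CPM on L7, 19.7 on L8 and 23.0 on L6. These means include the Q140 libraries, and the part of the L number was not tested. At 10 months the Q140 changes were -0.29 for Mir7b (SE 0.0913, FDR 0.156) and -0.49 for Mir7-2 (SE 0.204, FDR 0.383), beside -0.07 for Mir7-1 (SE 0.0639, FDR 0.762). For Mir153 the lowest FDR was in Q92 at 6 months, with -0.19 (SE 0.0542, FDR 0.148). At that age Q140 held 1246 ± 94.7 CPM of Mir153, Q92 1256 ± 96.3 and Q20 1419 ± 133. The Q20 libraries of 6 months were on L3 and L4, and those of Q80, Q92, Q140 and Q175 on other L numbers. Line and L number therefore cannot be told apart there. These lines were tested against shared controls, so the comparisons are not independent.

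The levels of Mir153 also split by the L number of the sample descriptions. At 2 months it held 1436 ± 201 CPM on L2 (n = 26), 1775 ± 185 on L1 (n = 15), 1965 ± 294 on L3 (n = 9) and 2128 ± 219 on L7 (n = 4). At 10 months it held 1494 ± 123 on L7 (n = 25), 1537 ± 127 on L6 (n = 21) and 1827 ± 127 on L8 (n = 10). Of the 10 libraries on L8, 5 were controls and 1 was Q175. With the L number as a covariate the CAG slope of Mir153 at 10 months went from -0.06 to -0.02 (FDR 0.786), and 0 members passed for CAG length at 2 or 10 months.

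**Figure D5:**
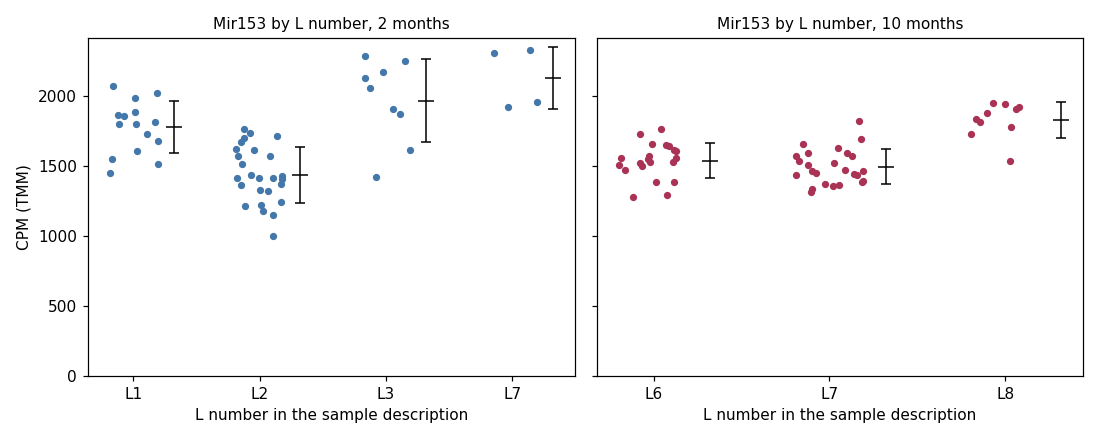
Mir153 in each library by the L number of the sample descriptions at 2 months (left) and 10 months (right), for numbers with at least 3 libraries, with mean and SD. The means ran from 1436 to 2128 CPM at 2 months and from 1494 to 1827 CPM at 10 months.

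The 8 WT libraries of 6 months are kept apart, since their sample numbers lie apart from those of the other 6-month libraries and the methods list WT cortex at 2 and 10 months only. Mir153 ran from 2108 to 2969 CPM in them and from 1096 to 1597 CPM in the other 48 libraries of that age. The share of all microRNAs whose ranges also lie apart was not counted. Mir7b had a median of 62.9 CPM against 83.1 in the 48, and Mir7-2 of 66.5 against 87.0. Mir671 was under every other 6-month library in all 8, at 105 to 185 CPM against 193 to 272. Between Q20 and WT, 3 members passed: Mir153 (-0.79 in Q20, SE 0.0744, FDR 2.64e-07), Mir7-2 (0.59, SE 0.208, FDR 0.0235) and Mir7b (0.48, SE 0.173, FDR 0.0262). DESeq2 also called 3, and 55% of 322 microRNAs passed. The Mir7-2 and Mir7b calls were lost without 1 female Q20 library (FDR 0.0658 and 0.0566), and that of Mir7b also without 1 male WT library (FDR 0.0542). The summed miR-7a loci did not pass (0.17, SE 0.134, FDR 0.296). Marker lists differed too: the erythrocyte list stood at 6395 ± 1635 CPM in these WT and 3596 ± 209 in Q20, the oligodendrocyte list at 2417 ± 710 and 3264 ± 256, and the neuron list at 112706 ± 15306 and 91280 ± 4181, and their part was not tested. Genotype and sample set cannot be told apart here. In the same comparison 0 members passed at 2 months (0% of 326 microRNAs) and 0 at 10 months (0% of 325), with 0 unadjusted p under 0.05 and 0 DESeq2 calls at both ages.

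Females and males did not differ past the threshold in any member at 2, 6 or 10 months, with 0 of 4 called by edgeR and DESeq2 and 0 unadjusted p under 0.05. Of all microRNAs, 0.612% passed at 2 months, 0% passed at 6 and 0.305% passed at 10 months. At 10 months Mir375 was 0.07 higher in females on the log2 scale (SE 0.0601) and Mir7-2 gave -0.09 (SE 0.134).

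Across the 20 group means (all but WT at 6 months), the microRNAs whose log2 level was most like each member were described by Pearson's r among the 220 with a mean of at least 10 CPM. Age differences, with whatever batch goes with them, enter every r. Mir7-2 was most like Mir3099 (0.980), Mir760 (0.978) and Mir412 (0.974), and Mir7b was most like Mir672 (0.961), Mir7-2 (0.958) and Mir543 (0.951). After the mean of each age was subtracted, Mir7b and Mir7-2 kept an r of 0.857, while Mir7-2 and Mir3099 had 0.446. Mir153 was most like Mir1983 (0.865), Mir26a-1 (0.859) and Mir874 (0.826). Mir375 was most like Mir96 (0.872), Mir182 (0.839) and Mir141 (0.830), all of the olfactory list. Without the 3 outlying libraries, the first 3 became Mir384 (0.897), Mir25 (0.897) and Mirlet7i (0.887), and Mir96 had an r of 0.765.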

How the data were processed

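Per the methods, clipped 36-base reads were aligned to mm10 (GRCm38) with STAR at default settings. The authors deposited an estimated count per Ensembl transcript and library, not normalized, which need not be whole. The methods name HTSeq, which gives whole counts, and how values that are not whole arose is not given in the sources used here. CASAVA 1.8.2 is named in the submitters' processing notes. A deposited FPKM table of the same libraries was not used.

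Transcripts were named with GENCODE (1228 of 1626), and 329 matched the study's microRNA list. Counts were rounded and tested with edgeR 4.0.16 in R 4.3.3 (TMM, robust quasi-likelihood F test, two-sided) over microRNAs with at least 1 count, on library totals over all transcripts, with sex of the cage and, at 6 months, library code (V in 11 libraries) as covariates. Labels and cage gave different sexes in 2 libraries. P-values were adjusted by Benjamini-Hochberg within each comparison and held against 0.05. A standard error is the size of the coefficient over the square root of F. Signed Z values of 6 and 10 months were added and scaled to unit variance for the combined test. DESeq2 1.42.0 was an alternative. The code was tested on simulated data.

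The text names the 4 members, Mir7-1, lists of related and marker microRNAs, and the 3 microRNAs most like each member. Members and lists were chosen with earlier results of these data known. Removal of outlying or olfactory-rich libraries, single libraries or genotypes, the summed miR-7a loci and the olfactory covariate were chosen after seeing the data. One list of related microRNAs is not reported here.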

Additional observations from a re-analysis of the deposited data

Results flagged for a closer look

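Single libraries stood apart from the other 7 of their group by Dixon's criterion in 15 of 84 combinations of group and member. Chance alone gives this in about 1 in 20 groups where values are independent and normally distributed. The CPM were not transformed and the members share libraries, so the rate expected here is not known. For Mir375 the highest library was 720 CPM in Q20 of 2 months (next 109), 321 CPM in WT of 2 months (next 111), 444 CPM in Q20 of 6 months (next 188) and 210 CPM in Q111 of 6 months (next 151), and the lowest in Q175 of 10 months was 47.6 CPM (next 64.5). One female Q111 library of 6 months was highest for Mir7b at 152 CPM (next 86.3) and for Mir7-2 at 165 CPM (next 97.8), and lowest for Mir153 at 1136 CPM (next 1381). One male WT library of 10 months was highest for Mir7b at 63.0 CPM (next 50.2) and for Mir7-2 at 46.7 CPM (next 28.7). For Mir7-2, further high libraries held 50.5 CPM in Q111 of 10 months and 34.8 CPM in Q20 of 10 months, and low ones 54.1 CPM in Q175 of 6 months and 39.2 CPM in Q92 of 2 months. For Mir153, a Q140 library of 10 months held 1875 CPM (next 1568). Totals of these libraries lay between 4065386 and 5753948 counts, within the range of the whole series.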

How the results depend on the processing

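The fall of Mir7-2 and Mir7b from 2 to 10 months and of Mir375 in Q175 at 10 months kept its direction and its side of the threshold under every alternative run for it. The number of members passing for CAG length at 6 months went from 0 to 3 with the WT libraries of 6 months included (Mir375, Mir153 and Mir7b). Of all 327 microRNAs, 156 passed with these libraries and 9 without them. In the meta-analysis the number of members went from 0 to 2 with them, where 111 of 327 microRNAs passed against 39 without them. It went to 1 on library totals, with DESeq2, with filterByExpr, without the library code (Mir375 each time) and without Q175 (Mir153). Between 40 and 44 microRNAs passed in the settings that called Mir375, and 4 of 327 without Q175. For Q80 to Q140 against controls the number of member calls went from 0 to 1 with DESeq2 (Mir7b). It went to 2 with DESeq2 after outlier steps modelled on the study's methods and with a prior that shrinks changes (Mir375 in Q92 and Mir7b in Q140, 2 months). With all genotypes in one fit it was also 2 (Mir375 in Q92 at 2 months, Mir153 in Q140 at 6). For Q20 against WT at 6 months, leaving out single libraries gave 1 to 3 members.

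Directions turned for Mir375 from 2 to 10 months (0.15 without the 3 outlying libraries, 0.19 without olfactory-rich ones, 0.10 without Q20, 0.0170 without WT), for its slope at 2 months (0.0281 without olfactory-rich libraries) and 10 months (0.11 without Q175), for the change of its slope (-0.0488 with DESeq2 after those outlier steps and with that prior, -0.10 without olfactory-rich libraries), for Q20 against WT at 6 months (-0.0529 without the high Q20 male, and -0.0529 to 0.387 over all single libraries left out) and for Mir153 in Q175 at 10 months against Q20 alone (0.0030). The causes were not tested.

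Replicate numbers in the labels did not pair the samples: the mean correlation of same-numbered samples was -0.0482, -0.035 and 0.000401 at 2, 6 and 10 months. With the replicate number as a block, Mir375 from 2 to 10 months was 0.0068, Mir153 was -0.08 (FDR 0.0794), and Mir7-2 in Q20 against WT at 6 months was 0.57 (FDR 0.0772). The members passing then went from 3 to 2 in both comparisons, and no other call changed.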
